A study of Gallus gallus with 4 samples.

Results

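CTCF sites that peak calling found in non-induced erythroid HD3 cells, and in neither induced HD3 cells nor lymphoid DT40 cells, were examined across the chicken genome. They were defined by merging the 3 deposited peak lists, counting peaks that shared at least 1 bp as the same site, and keeping sites with a peak from non-induced HD3 and from no other list. Chromosomes 1, 3 to 10, 12 to 19 and 21 to 28 were included. This gave 1244 sites, hereafter the non-induced-only sites, of 10842 sites on these chromosomes and 15733 in the whole series. Each of them consisted of a single non-induced HD3 peak. A further 186 sites with the same pattern lay on other sequences and were not examined.

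CTCF is a zinc finger protein that binds a long DNA motif, blocks enhancers from acting across its sites as an insulator, and anchors chromatin loops by stopping cohesin. Many of its sites are occupied in most cell types, and others are occupied in some cell types only. In chicken erythroid cells it is known for its site in the insulator upstream of the beta-globin genes and for its sites in the alpha-globin domain.

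Chromatin immunoprecipitation followed by sequencing (ChIP-seq) had been done on 3 cell populations with a custom rabbit antibody against an N-terminal part of chicken CTCF. HD3 consists of chicken erythroblasts that avian erythroblastosis virus has transformed (clone A6 of the line LSCC), and non-induced HD3 cells were grown without any inducer. Induced HD3 is the same clone after erythroid differentiation had been triggered by iso-H-7, a protein kinase inhibitor, in medium with HEPES at raised temperature. DT40 is a chicken B-lymphoid line from a bursal lymphoma caused by avian leukosis virus, grown with β-mercaptoethanol and without the inducer. HD3 and DT40 therefore differ in lineage, in transforming virus and in culture medium, and each line is a single clone or line. Each population had 1 CTCF library. The series holds an input library for HD3, which was not analysed here, and none for DT40. The peak lists carry no expression values, so the cell identities could not be checked against marker genes.

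On these chromosomes there were 7063 peaks for non-induced HD3, 3870 for induced HD3 and 8980 for DT40. Median peak lengths were 1220 bp, 652 bp and 700 bp in the same order. Without read counts in the files, the sequencing depth is unknown. A site missing from a list was not called there, which does not show that it was unoccupied. With 1 library per population there is no replicate check and no test between populations. All intervals below are 95% intervals that cover counting error only and take sites as independent. No sequence or gene model of the build of the lists (galGal4) was used here, so sites are given by position without gene names or DNA sequence. Start and end count from 1.

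The non-induced-only sites made up 17.6% of the 7063 non-induced HD3 sites (interval 16.7 to 18.5) and 11.5% of all sites on these chromosomes. These shares are set by the rule and are given as background. For comparison, 49.6% of non-induced sites had no call after induction, and 26% had none in DT40. These lists differed in length, with 3870 peaks for induced HD3 and 8980 for DT40. The shares therefore do not compare induction with lineage. The classes nearest to the non-induced-only sites were 2259 sites called in non-induced HD3 and DT40, 589 called in both HD3 states and not in DT40, and 2971 called in all 3 lists.

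The non-induced-only sites had the lowest peak scores of the 4 classes of non-induced site. The score is the value that the authors' peak caller, MACS, gave each peak. It was compared within the non-induced list only, where the lowest value was about 50. The median score was 71.2 for non-induced-only sites (interval 69.4 to 73.2; interquartile range 57.9 to 90.5). It was 84.0 for sites shared with DT40 (interval 82.4 to 85.8), 145 for sites of both HD3 states (interval 138 to 156) and 187 for sites in all 3 lists (interval 182 to 193). A score under 60, close to the floor of the list, was found for 29.4% of non-induced-only sites (366 sites), against 17.1%, 5.77% and 2.05% in the other classes in the same order. A score of at least 100 was reached by 230 non-induced-only sites, or 18.5% (interval 16.4 to 20.8), against 55.9% of all non-induced sites. The highest score was 268 among non-induced-only sites, against 2071 among sites in all 3 lists. Only 13 of the 1244 reached 200.

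**Figure D1:**
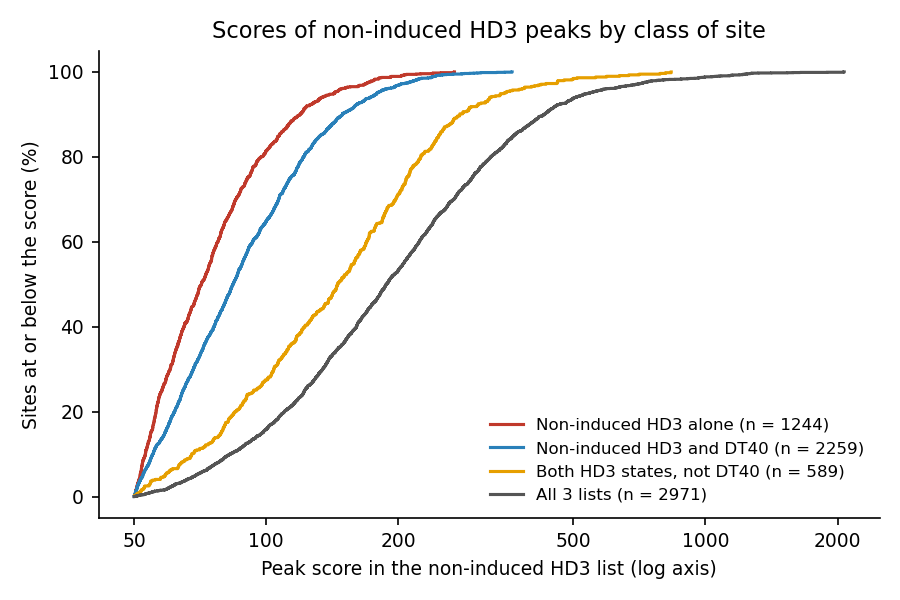
Cumulative share of sites (y axis, percent) at or below each peak score in the non-induced HD3 list (x axis, log scale), with a line for each class of site. The line of the 1244 non-induced-only sites lies to the left of the other 3 and ends at a score of 268, with a median of 71.2 against 187 for sites in all 3 lists.

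When all non-induced sites were divided by score into 10 bins of equal size, numbered from the lowest, the share called in no other list fell with each step. In bin 1 (scores 50.0 to 58.1), 318 of 707 sites were non-induced-only, a share of 45.0% (interval 41.3 to 48.7). In bin 5 (92.3 to 111) the share was 18.4% (interval 15.6 to 21.4). In bin 9 (218 to 309) it was 0.992%, or 7 sites, and in bin 10 none of the 707 sites was non-induced-only (0%, interval 0 to 0.520). Bins 1 to 3 together held 780 non-induced-only sites, 62.7% of the 1244.

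Absence after induction and absence from DT40 were set side by side at equal score, since both are tied to the score. Sites with both absences are the non-induced-only sites themselves. The paired shares thus restate the contrast of the rule by score and are given as description, not as separate support. They were not matched for chromosome group. In bin 1, 50.2% of the sites not called after induction were also missing from DT40 (318 of 634, interval 46.2 to 54.1), against 37.0% of the sites called after induction (27 of 73, interval 26.0 to 49.1). In bin 2 the shares were 40.9% (interval 36.8 to 45.0) and 26.4% (interval 18.8 to 35.2), and in bin 3 they were 40.3% (interval 36.2 to 44.5) and 20.9% (interval 14.8 to 28.2). The intervals did not overlap in bins 2 and 3. In bins 4 to 6 the sites without a call after induction were again more often missing from DT40, at 32.5%, 29.7% and 24.7% against 27.96%, 20.7% and 17.9%, with overlapping intervals. In bins 7 to 9 the paired values were 17.3% and 18.3%, 22.0% and 19.5%, and 14.3% and 13.1%, closer together than their intervals are wide. The gap between the paired shares was thus seen at low scores and not in bins 7 to 9, where only 225, 132 and 49 sites had no call after induction.

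**Figure D2:**
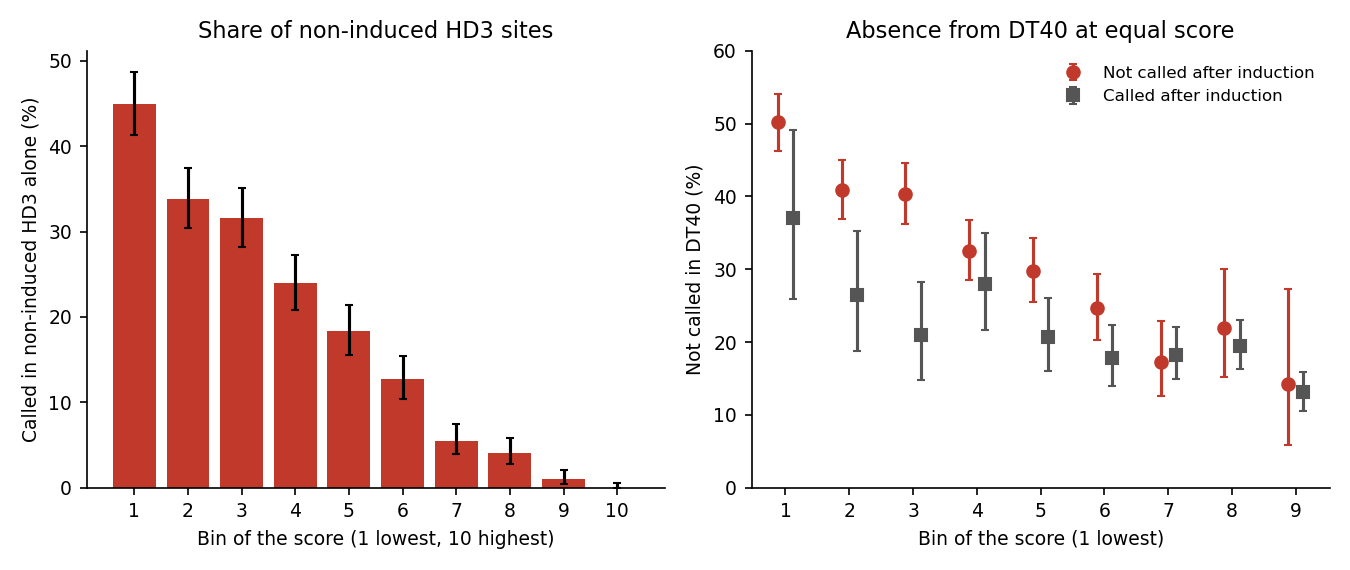
Left, share of non-induced HD3 sites called in no other list (y axis, percent) by bin of the peak score, from 45.0% in bin 1 to 0 in bin 10. Right, share of sites not called in DT40 (y axis, percent) by bin of the score, for sites not called (circles) and called (squares) after induction; the intervals are apart in bins 2 and 3, and error bars in both panels are exact 95% binomial intervals.

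Peaks of the non-induced-only sites were the shortest of the 4 classes by median, and slightly longer than other non-induced peaks of like score. Their median length was 1199 bp (interval 1193 to 1205), against 1207 bp for sites shared with DT40 (interval 1203 to 1211), 1218 bp for sites of both HD3 states and 1240 bp for sites in all 3 lists (interval 1236 to 1245). The intervals of non-induced-only sites and of sites shared with DT40 overlapped. Within the score bins the order was the other way, with a longer median for non-induced-only sites than for all other non-induced sites in each of the 9 bins that held any. The medians were 1175 bp and 1159 bp in bin 1, 1189 bp and 1163 bp in bin 2, 1212 bp and 1208 bp in bin 5, and 1282 bp and 1266 bp in bin 9. Some gaps were small, as in bin 7 (1235 bp and 1233 bp), and bin 9 held only 7 non-induced-only sites. No intervals were computed for the medians within bins. Lengths ranged from 684 to 3609 bp, with an interquartile range of 1140 to 1266 bp.

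The strongest of these sites were scattered over the genome. The highest score, 268, was located at chr6:14142297-14143536, and it ranked 1132 of the 8768 peaks of the whole non-induced list. Peaks of induced HD3 and of DT40 lay 5.26 kb and 5.22 kb away, and the nearest other non-induced peak lay 5.06 kb away. This site thus stood close to peaks of both other lists. The second, at chr3:80210984-80214020 (score 267), was 3037 bp long, lay 608 kb from the nearest induced HD3 peak and 38.9 kb from the nearest DT40 peak, and was also the fourth longest non-induced-only site. The third, at chr13:545863-547144 (score 250), lay 63.9 kb from an induced HD3 peak and 129 kb from a DT40 peak. Both stood farther from the other lists than the first.

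Of the next 7 sites by score, 3 lay within 10 kb of a peak in another list. The fourth was located at chr1:35270767-35272184 (score 240), with an induced HD3 peak at 4.49 kb and a DT40 peak at 4.43 kb. The eighth was located at chr28:4036438-4037728 (score 208), with peaks at 9.01 kb and 9.02 kb. The tenth was located at chr5:37552946-37554166 (score 205), with a DT40 peak at 2.72 kb and an induced HD3 peak at 40.1 kb. The other 4 stood farther apart. They lay at chr17:8083890-8085166 (score 239), at chr26:2597503-2598767 (score 225), at chr26:1686801-1688109 (score 219), and at chr5:42986797-42988205 (score 206). Their nearest peak of either other list was between 14.5 kb and 82.9 kb away.

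The longest sites had both low and high scores. The longest, at chr1:193302004-193305612, measured 3609 bp with a score of 56.3. It was followed by chr24:2535932-2539237 (3306 bp, score 126) and chr1:77632521-77635561 (3041 bp, score 54.4). The fifth, after the chromosome 3 site described above, was located at chr1:187162416-187165110 (2695 bp, score 62.5). Their scores thus ran from near the floor of the list to the second highest of all non-induced-only sites.

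Macrochromosomes held a larger fraction of these sites than of the other classes of non-induced site, though less than their 61.8% of the chromosome span. Chicken chromosomes are divided into a few large macrochromosomes and many small, gene-dense and CpG-rich microchromosomes. Taking chromosomes 1 and 3 to 5 as macrochromosomes, 719 of the 1244 non-induced-only sites (57.8%) lay on them, against 49.3% of sites shared with DT40, 47.9% of sites of both HD3 states and 44.1% of sites in all 3 lists. Density was 1.58 non-induced-only sites per Mb on macrochromosomes (interval 1.47 to 1.70), 1.77 on chromosomes 6 to 10 (interval 1.56 to 2.00) and 1.98 on microchromosomes (interval 1.75 to 2.22). Microchromosomes were thus 1.25 times as dense in these sites as macrochromosomes (interval 1.08 to 1.44). For sites shared with DT40 this ratio was 2.00 (interval 1.82 to 2.21), for sites of both HD3 states 2.10 (interval 1.73 to 2.54) and for sites in all 3 lists 2.58 (interval 2.37 to 2.80).

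The ratio was tied to the score. Among sites with a score under 100 it was 1.13 for non-induced-only sites (interval 0.963 to 1.33), 1.87 for sites shared with DT40 (interval 1.65 to 2.11), 1.34 for sites of both HD3 states (interval 0.882 to 1.99) and 1.56 for sites in all 3 lists (interval 1.24 to 1.96). At scores of 100 and over it was 1.85 for non-induced-only sites (interval 1.35 to 2.52), against 2.28, 2.45 and 2.81 in the other classes in the same order. With equal numbers of top-scored peaks in each list, the ratio was 1.88 for the 736 sites then called in non-induced HD3 alone. Only 230 of these 736 belonged to the non-induced-only sites, so this value describes a largely different set. No ratio at this setting is given for the other classes. The non-induced-only sites had the lowest ratio of the 4 classes on both sides of a score of 100. Their interval was clear of that of sites shared with DT40 at lower scores and overlapped it at higher scores. It overlapped that of sites of both HD3 states on both sides. Against sites in all 3 lists, it overlapped at lower scores and was clear at higher scores (2.57 to 3.07).

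At equal score the share of non-induced sites called in no other list was lower on microchromosomes than on macrochromosomes in each of 5 score bands. The intervals were apart for scores from 60 to 75 and from 75 to 100. For scores from 75 to 100 it was 18.6% on microchromosomes (63 of 338 sites, interval 14.6 to 23.2) and 27.8% on macrochromosomes (180 of 648, interval 24.4 to 31.4). For scores from 60 to 75 it was 26.1% (interval 20.6 to 32.2) and 36.4% (interval 32.4 to 40.6). For scores under 60, the band with most non-induced-only sites, it was 40% (interval 33.2 to 47.1) and 46.1% (interval 41.6 to 50.7), with overlapping intervals. The intervals also overlapped for scores from 100 to 150, at 10.8% and 13.4%, and of 150 and over, at 1.67% and 2.29%. Among chromosomes with at least 50 non-induced sites, the share ran from 7.14% on chromosome 17 (11 of 154, interval 3.62 to 12.4) to 22.0% on chromosome 3 (178 of 810, interval 19.2 to 25.0). Chromosome 16, with 3 of 8 sites, was too small for a share to be read.

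**Figure D3:**
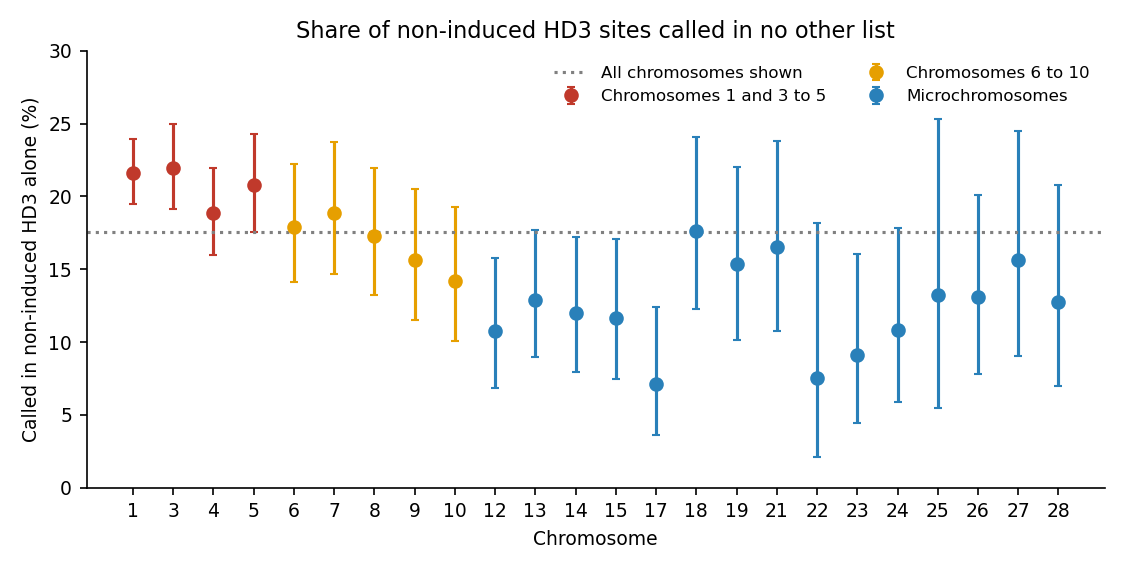
Share of non-induced HD3 sites called in no other list (y axis, percent) on each chromosome with at least 50 such sites (x axis), with exact 95% binomial intervals as error bars; the dotted line is the share over the chromosomes shown. Chromosomes 1 and 3 to 5 lie above the line, and most microchromosomes lie below it, with chromosome 17 lowest at 7.14%.

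The share of non-induced-only sites within 1 Mb of a chromosome end had an interval that overlapped that of each other class in every chromosome group. On macrochromosomes it was 2.78% (interval 1.71 to 4.26), against 2.06% for sites shared with DT40, 4.26% for sites of both HD3 states and 2.60% for sites in all 3 lists. On chromosomes 6 to 10 it was 7.51% (interval 4.58 to 11.5), between 3.13% for sites of both HD3 states (interval 0.858 to 7.81) and 11.1% for sites in all 3 lists (interval 8.77 to 13.8), with 8.51% for sites shared with DT40. On microchromosomes it was 25.7% (interval 20.6 to 31.4), against 21.9%, 29.6% and 25.7% for sites shared with DT40, of both HD3 states and in all 3 lists. Chromosome ends were taken as 0 and the last peak end in any list.

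Few non-induced-only sites were near misses of the overlap rule, though their distances to the other lists were like those to other non-induced peaks. Of the 7063 non-induced sites, 5819 were shared with another list. The nearest peak of each kind can therefore belong to the same site, so this likeness is not a separate result. The nearest other non-induced peak lay a median of 25.2 kb away from non-induced-only sites (interval 23.2 to 28.6). The median distance between edges to the nearest peak of either other list was 22.9 kb (interval 20.6 to 24.6). Only 19 sites (1.53%, interval 0.922 to 2.37) had such a peak within 500 bp and 47 (3.78%, interval 2.79 to 4.99) within 1 kb. Within 10 kb there were 343 (27.6%, interval 25.1 to 30.1), and 194 (15.6%, interval 13.6 to 17.7) had none within 100 kb. Median scores were slightly lower at longer distances. The median was 73.3 for the 343 sites with a peak of another list within 10 kb (interval 69.7 to 76.9), 72.7 for the 541 at 10 to 50 kb (interval 70.0 to 75.1), 68.6 for the 166 at 50 to 100 kb (interval 64.6 to 75.5) and 66.0 for the 194 with none within 100 kb (interval 62.5 to 69.9). Of the sites beyond 100 kb, 72.7% lay on macrochromosomes, against 49.9% of those within 10 kb.

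The sites just inside and just outside the overlap rule were few. The nearest to a peak of another list was located at chr5:49917516-49918748 (score 147), 53 bp from a DT40 peak. The next 4 were 182 to 277 bp from one, at chr3:29802188-29803803 and at chr1:43987307-43988505, chr1:53618868-53620059 and chr1:48975448-48976579. The scores of these 4 were 68.6, 61.2, 121 and 50.6. On the other side of the rule, the smallest overlap of a non-induced peak with another list was 68 bp, at chr10:19129535-19130591 (score 54.6), and the next smallest was 286 bp. Of the 5819 non-induced sites that were shared, 1 overlapped by under 100 bp and 143 by under 500 bp, with a median of 730 bp.

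Distances to the list of induced HD3 were longer than for another class that was also not called there. The nearest induced HD3 peak was a median of 59.6 kb away from non-induced-only sites (interval 55.3 to 65.9), and 44.3 kb from sites shared with DT40 (interval 41.2 to 48.0). No induced HD3 peak lay within 100 kb for 35.9% of non-induced-only sites (interval 33.3 to 38.7) and 25.2% of sites shared with DT40 (interval 23.5 to 27.1). The medians stood in the same order on each chromosome group, where no intervals were computed. The comparison was not matched for score, which was lower for non-induced-only sites. Medians were 77.3 kb and 61.0 kb on macrochromosomes, 62.1 kb and 47.7 kb on chromosomes 6 to 10, and 34.7 kb and 30.2 kb on microchromosomes.

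Toward DT40 the order was the other way. The nearest DT40 peak was a median of 26.3 kb away from non-induced-only sites (interval 23.8 to 28.8) and 31.4 kb from sites of both HD3 states (interval 27.3 to 35.8), with overlapping intervals. A DT40 peak lay within 1 kb of 3.62% of non-induced-only sites (45 sites, interval 2.65 to 4.81) and 1.02% of sites of both HD3 states (6 sites, interval 0.375 to 2.20). Within 10 kb the shares were 24.5% (interval 22.1 to 27.0) and 21.4% (interval 18.1 to 24.9). The intervals overlapped there and at every other distance examined except 1 kb. This comparison was not matched for score, which was lower for non-induced-only sites, and the shares were not split by chromosome group.

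**Figure D4:**
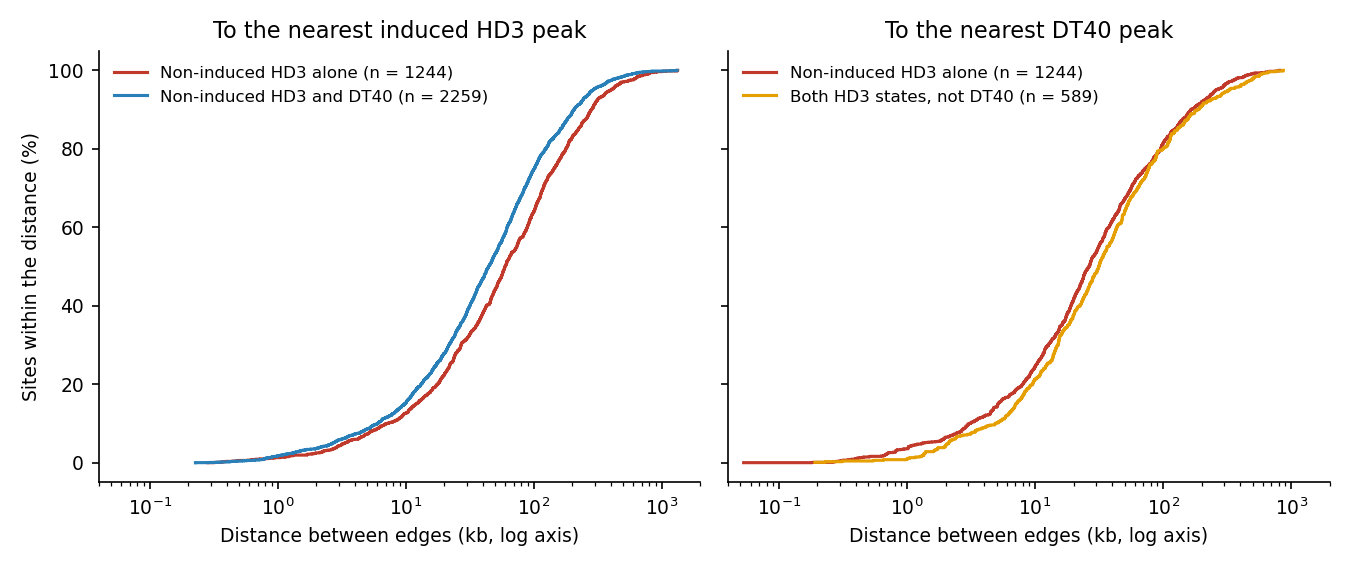
Cumulative share of sites (y axis, percent) with a peak within each distance between edges (x axis, kb, log scale). Left, to the nearest induced HD3 peak, where non-induced-only sites (median 59.6 kb) lie to the right of sites shared with DT40 (44.3 kb); right, to the nearest DT40 peak, where non-induced-only sites (26.3 kb) lie slightly to the left of sites of both HD3 states (31.4 kb).

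The 5 sites farthest from the other lists were picked for that distance, so they lay in long stretches without other-list peaks. The farthest from both other lists was located at chr3:73106216-73107448 (score 64.9), 861 kb from an induced HD3 peak and 816 kb from a DT40 peak, with its nearest non-induced peak 860 kb away. The fourth farthest, at chr8:22005336-22006475 (score 78.7), stood similarly alone, with the nearest peaks 648 kb (induced HD3) and 664 kb (DT40) away. The other 3 of the 5 farthest sites were neighbours on chromosome 4, starting at 87104723, 87137745 and 87258995, with scores of 99.0, 69.2 and 52.8. They lay in a stretch of 2197 kb without a peak of the other lists, the longest on these chromosomes, which held 5 non-induced-only sites.

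Stretches between neighbouring peaks of the other lists were also compared by length. Those of 25 to 100 kb held 2.32 non-induced-only sites per Mb (442 sites, interval 2.11 to 2.54), those of 100 to 250 kb 1.92 (interval 1.73 to 2.12), those of 250 to 500 kb 1.25 (interval 1.07 to 1.45) and those of 500 kb and over 1.04 (156 sites, interval 0.884 to 1.22). From 25 kb upward, density fell as the stretches became longer. All chromosome groups were pooled, and microchromosomes were denser in these sites than macrochromosomes (1.98 against 1.58 per Mb). The fall was not separated from chromosome group. Stretches under 25 kb held 1.86 per Mb (interval 1.46 to 2.32), less than those of 25 to 100 kb, with overlapping intervals. The reason was not tested. Of the 188 stretches of 500 kb and over, 96 held no non-induced-only site.

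The surroundings of non-induced-only sites were slightly poorer in CTCF sites than those of the classes with a DT40 call, and like those of sites of both HD3 states. A median of 8 merged sites of any class lay within 250 kb (interquartile range 5 to 12), against 9 (6 to 14) for sites shared with DT40, 8 (5 to 12) for sites of both HD3 states and 10 (6 to 15) for sites in all 3 lists. The nearest other non-induced peak was a median of 25.2 kb away (interval 23.2 to 28.6), against 21.5 kb (interval 20.2 to 22.7), 25.0 kb (interval 22.1 to 29.4) and 21.5 kb (interval 20.5 to 22.2) in the same order. These values pooled all chromosome groups and were not split by group. Macrochromosomes held 57.8% of non-induced-only sites, against 49.3% of sites shared with DT40 and 44.1% of sites in all 3 lists. Another non-induced peak lay within 10 kb of 326 non-induced-only sites, and it had the higher score in 231 of these pairs (70.9%). The median score was 73.9 for these sites, within bin 3 of the score (67.72 to 79.16). For their neighbours it was 106, within bin 5 (92.35 to 110.66) and thus not above the middle of the non-induced list. Most non-induced sites scored above bin 3, so a higher-scored neighbour is frequent in any case. Neighbours were counted once for each of the 326 sites, so they are not all distinct peaks. Of them, 105 (32.2%) were called in all 3 lists, against 2971 of all 7063 non-induced sites. A further 90 (27.6%) were non-induced-only themselves, against 17.6% of all non-induced sites. Non-induced-only sites that were nearest to each other entered these counts in both directions. Whether a higher-scored neighbour was more frequent than for other sites of like score was not tested.

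In order along the chromosomes, the positions just before and just after each non-induced-only site were counted. Of these 2487 positions, 410 (16.5%) held another non-induced-only site, against 11.5% of all sites on these chromosomes. Adjacent non-induced-only sites were counted from both sides, so 410 is a number of positions and not of distinct sites. The share that was non-induced-only was 11.4% next to sites shared with DT40, 17.9% next to sites of both HD3 states, 11.3% next to sites in all 3 lists and 8.66% next to sites called in DT40 alone. Like sites also stood together in other classes. Sites of both HD3 states made up 11.2% of the neighbours of their own class and 5.43% of all sites, and sites called in DT40 alone made up 42.3% and 32.3%. The excess was small for sites shared with DT40 (22.6% and 20.8%) and for sites in all 3 lists (29.7% and 27.4%). Most non-induced-only sites, 876 of 1244 (70.4%), had a site of another class on both sides or a chromosome end. The others, 368 sites (29.6%), formed runs of 2 or more with no other site between them.

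The longest run was located at chr1:70245015-70758117, and it was singled out, like the other runs of at least 4 sites, after the values had been seen. It held 11 non-induced-only sites over 513 kb, with no peak of induced HD3 or DT40, inside a stretch of 972 kb without any call of the other lists. Scores were low, from 50.5 to 108 with a median of 59.1, and 6 of the 11 were under 60. The highest was the site at chr1:70648526-70649653 (score 108), followed by chr1:70581871-70583161 (score 85.1). Lengths were between 1087 and 1356 bp, in the usual range. The 1 Mb before the run held 7 peaks from non-induced HD3, 3 from induced HD3 and 5 from DT40, and the 1 Mb after it 11, 9 and 5. The absence of other-list peaks inside the run follows from how runs were defined and is not a separate result. With the score limited to at least 100, a single site of the run would remain.

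**Figure D5:**
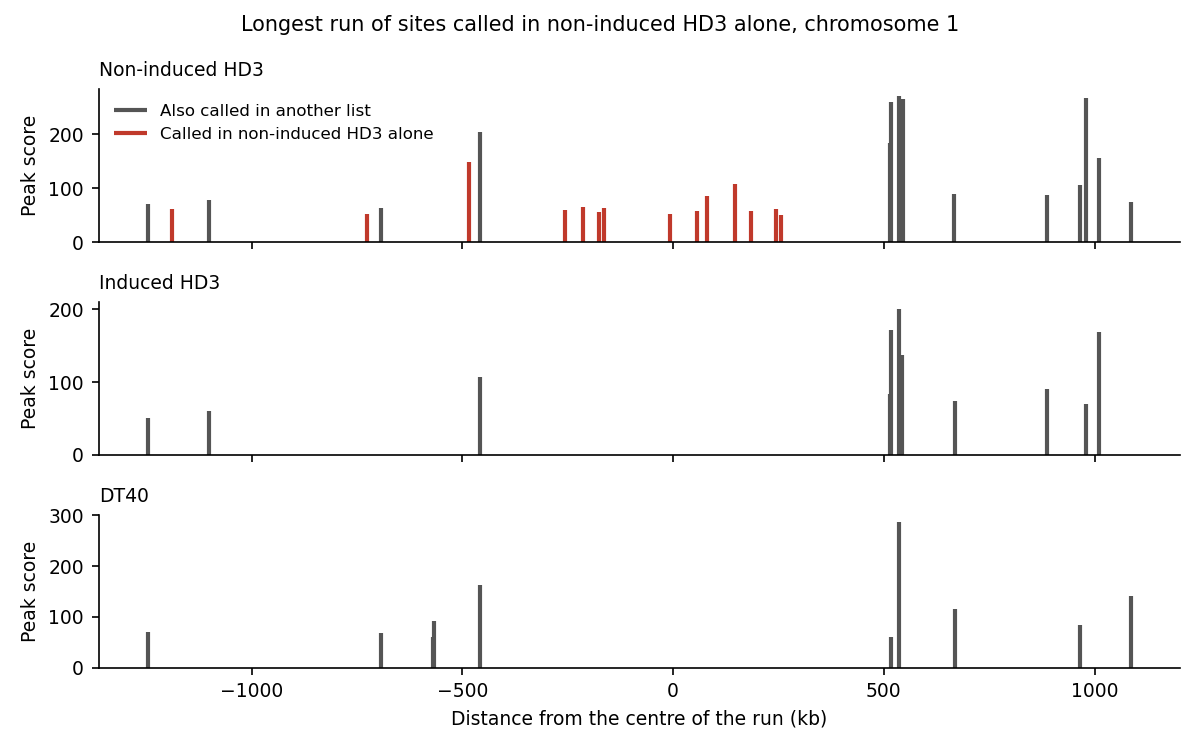
Peaks of the 3 lists around the longest run of non-induced-only sites on chromosome 1, drawn as lines at their distance from the centre of the run (x axis, kb) with their score as height (y axis, separate for each list). The 11 sites of the run, in red around the centre, have scores from 50.5 to 108. By the definition of a run, no peak of induced HD3 or DT40 lies between them. In all, 14 non-induced-only sites are drawn in red, counting those to the left of the run. Peaks of all lists stand on both sides.

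Runs of 5 were found at chr3:27158449-28023089, at chr4:87104723-87863443 and at chr5:28191809-28596850. Their median scores were 55.4, 70.1 and 91.8. The chromosome 3 run held 1 strong peak (score 175) among 4 with scores under 60. The chromosome 4 run began 1403 kb after the last peak of the other lists, and the 1 Mb before it held no peak of any list. The chromosome 5 run had 2 sites with scores of at least 100. A further 4 runs of 4 sites lay on chromosome 1 (2 runs), chromosome 7 and chromosome 18.

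Spacing among non-induced-only sites was described without a matching value for other classes, so its degree of crowding cannot be judged. Another non-induced-only site lay within 100 kb of 480 of them (38.6%, interval 35.9 to 41.4), and the median distance to the nearest was 157 kb (interval 138 to 171). Chaining sites within 100 kb gave 764 single sites, 162 pairs and 45 larger clusters. Clusters of 7 sites lay within the chromosome 1 run, at chr1:70492587-70758117, and near the start of chromosome 5, at chr5:152790-426503. The chromosome 5 cluster had 13 non-induced HD3 peaks in all, 4 induced HD3 peaks and 7 DT40 peaks between its ends, with non-induced-only scores of 65.2 to 128. Clusters, unlike runs, may hold other sites by definition, and this one was interspersed with shared sites. Clusters of 5 lay at chr1:49267404-49449989, with 9 peaks from non-induced HD3, 0 from induced HD3 and 5 from DT40, and at chr6:18789850-18940682, with 7, 2 and 3. The only 100 kb window with 4 non-induced-only sites was located at chr18:600001-700000, with scores from 52.3 to 134, and 12 windows had 3.

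In windows of 2 Mb with at least 15 non-induced sites, of which there were 227, the median share called in no other list was 16.7%. The highest share, 9 of 15 sites, was at chr3:44000001-46000000 (60%, interval 32.3 to 83.7), where the median score of all non-induced sites was 72.6. The second was 50.0%, at chr5:38000001-40000000 (8 of 16, interval 24.7 to 75.3), and the third 45.2%, around the run on chromosome 1 (14 of 31, interval 27.3 to 64.0). At the other end, 8 windows had none, among them chr17:4000001-6000000 with 0 of 33 sites (interval 0 to 10.6). Its non-induced sites had a median score of 132, and it held 22 induced HD3 and 49 DT40 peaks. The windows at both ends of the range were picked by their values from 227, and their intervals do not allow for that.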

How the data were processed

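The values were taken from 3 peak lists deposited by the authors, 1 per CTCF ChIP-seq library, with positions, a MACS peak name and a score for each peak and no header. CASAVA 1.8.2, Bowtie2 and MACS, with the galGal4 build, are named per the submitters' processing notes. Neither parameters nor controls of the peak calling are stated there. The deposited score is the peak caller's own value, of unstated scale, and was compared within a list only, except that 1 alternative applied a score limit of 100 to all lists as if their scales were the same.

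Peaks of the 3 lists overlapping by at least 1 bp were merged into sites and classed by list. Shares carry exact Clopper-Pearson intervals, densities exact Poisson intervals, density ratios exact conditional binomial intervals and medians order-statistic intervals, all at 95%. A chromosome's span was its last peak end in any list. Microchromosomes were 12 to 19 and 21 to 28. Peak placement in windows used midpoints. No p-value was computed, with 1 library per group.

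The sites, classes and named regions were chosen with earlier results of these data known. Named sites were the 10 highest-scored, the 5 longest, and the 5 farthest from and 5 nearest to the other lists. Named regions were the 3 clusters (4 with ties) and 100 kb windows with most sites, where 1 window led 12 tied ones. Runs and 2 Mb windows were added after the values were seen. Gene lists, motif and base composition were not analysed, since no galGal4 sequence or gene models were at hand. Merging and distances were tested on simulated lists. Versions were SciPy 1.17.1, NumPy 2.4.6, pandas 2.3.3 and matplotlib 3.10.9 under Python 3.11.15.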

Additional observations from a re-analysis of the deposited data

How the results depend on the processing

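No paired analysis was possible because no population has a second library, and no replicate could be left out. The lengthened peaks and the comparison without the longest run were added after the data were seen. The values reported were 1244 sites, a share of 17.6%, a median score of 71.2, a median length of 1199 bp, 27.6% with a peak of another list within 10 kb, 38.6% with another such site within 100 kb, and a density ratio of 1.25. In that order, a reciprocal overlap of 50% gave 2310, 32.7%, 84.1, 1230 bp, 61.0%, 58.0% and 1.74. All 1244 sites were among the 2310, and long non-induced peaks fail this setting by construction. Keeping only peaks scored 100 or more in every list gave a share of 24.1%, 131, 1240 bp, 18.3%, 29.6% and 1.82 (950 sites, 230 of them among the 1244). Applied to non-induced HD3 only, it gave 230, 5.83%, 121, 1240 bp (1239.5), 31.7%, 6.09% and 1.85. Taking the 4820 best-scored peaks of each list gave 736, 18.6%, 122, 1242 bp, 20.1%, 27.99% and 1.88, and again 230 sites were among the 1244. The last 3 settings leave out low-scored peaks by construction. Midpoints within 500 bp moved the share to 18.8%, the length to 1206 bp and the 10 kb share to 32.1%. Using 500 bp about each midpoint gave 18.8%, 1206 bp and 31.1%. Counting peaks up to 1000 bp apart as shared moved the 10 kb share to 24.7%. Limits of 5 kb and 50 kb in place of 10 kb gave 16.1% and 71.1%, and 50 kb and 250 kb in place of 100 kb gave 23.7% and 63.8%. The other 31 of 69 comparisons, among them every one with peaks over 3000 bp left out, with lengthened peaks or with chromosomes 1 to 8 as macrochromosomes, stayed within the interval of the reported value, or within 1.5 times for the number of sites. For the remaining shifts the cause was not tested. The depth of the lists is unknown, so absence of a call cannot be bounded.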
